A study of Mus musculus with 3 samples.

Results

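The genes described here are 33 genes of the macrophage lineage and of the states that macrophages take in tissues, found by symbol among the 54532 genes counted in 3 mouse RNA-seq libraries. They were grouped by role into 17 pan-macrophage genes (Adgre1, Csf1r, Cd68, Lyz2, Cd14, Ptprc, Fcgr1, Fcgr3, Fcer1g, Tyrobp, Aif1, Laptm5, Msr1, Marco, Clec7a, Ms4a7 and Sirpa), 3 transcription factors (Spi1, Maf and Irf8), 7 genes of resident macrophages (Mertk, Cd163, Lyve1, Timd4, Folr2, Siglec1 and Selenop), 5 lipid-associated genes (Trem2, Spp1, Gpnmb, Apoe and Lgals3) and 1 gene of recruited monocytes (Ly6c2). All cells came from Myh6-mCherry mice, operated on at 8 weeks of age, whose hearts were taken 5 days after myocardial infarction. MICFs, the fibroblasts isolated from these hearts, were kept for 4 weeks without virus. The other 2 libraries were iCMs made from MICFs with doxycycline-inducible lentiviruses, sorted after 4 weeks for mCherry driven by the Myh6 promoter, with 5 sorted samples mixed in each. The GMTMS cocktail holds Gata4, Mef2c, Tbx5, Myocd and Sall4, and the GMTMM cocktail is labelled as holding Mesp1 in place of Sall4. The sources used here do not say whether MICFs were sorted or received doxycycline. With 1 library per condition no difference has a replicate check, so none was tested.

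Macrophages depend on signals through the CSF1 receptor (Csf1r) and on the transcription factor PU.1 (Spi1), and they sense and engulf debris through Fc receptors, scavenger receptors and the CD14 and TREM2 receptors. In the heart, resident macrophages that express Lyve1, Timd4, Folr2, Cd163 and Mertk renew themselves locally, whereas monocytes rich in Ly6C enter from the blood after an infarct. Lipid-associated macrophages, which express Trem2, Spp1, Gpnmb, Apoe and Lgals3, are known from lipid-laden and injured tissues. Several of these genes are also expressed outside leukocytes, among them Apoe, Lgals3, Spp1, Selenop, Lyve1 and Maf.

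The libraries held 11861773 (MICFs), 10624118 (GMTMS) and 11904484 (labelled GMTMM) counts, and 3 counts, the limit that a count of 0 allows, stood for 0.253, 0.282 and 0.252 CPM. Sall4 had 0, 1190 and 1060 counts in this order and Mesp1 had 0 in each, so these factors went against the label GMTMM and the library is called GMTMM-labelled throughout. The labelled cell types were present, since the 8 fibroblast genes examined summed to 1464, 221 and 2808 FPKM and the 8 cardiomyocyte genes to 1.61, 684 and 244 FPKM. In bulk samples a change in the number of cells of a type and a change in the RNA per cell cannot be told apart. Differences are on the log2 scale of quantile-normalized FPKM with a pseudocount of 1, which understates changes of low genes, and a gene was called higher or lower when its difference was over 1. Folds are ratios of the deposited FPKM with a 95% Clopper-Pearson interval on the counts, which covers counting error only. All 33 genes had at least 10 counts in at least 1 library, as did 15702 genes in all, although Marco, Timd4 and Ly6c2 passed only through the library or libraries in which they were higher.

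Macrophage genes were among the most abundant transcripts of all 3 libraries, MICFs included. Together the 33 genes took 4.78% of the counts in MICFs (Wilson 95% interval 4.76 to 4.79), 6.70% in GMTMS-iCMs (6.69 to 6.72) and 3.55% in the GMTMM-labelled library (3.54 to 3.56). By these shares the order was GMTMS, MICFs and the GMTMM-labelled library, and the intervals cover the counting error of 1 library each, not the spread between samples. Lyz2, which encodes lysozyme M, ranked 1, 1 and 3 among all genes by FPKM, Apoe, the lipid carrier, ranked 2 in each, and Selenop, a selenium transport protein, ranked 5, 7 and 10. In MICFs 11 of the 33 genes stood among the 100 genes of highest FPKM, in GMTMS-iCMs 14 did and in the GMTMM-labelled library 7 did. By FPKM, 30 of the 33 genes were highest in GMTMS-iCMs, and the exceptions were Maf and Lyve1, highest in MICFs, and Ly6c2, highest in the GMTMM-labelled library.

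**Figure D1:**
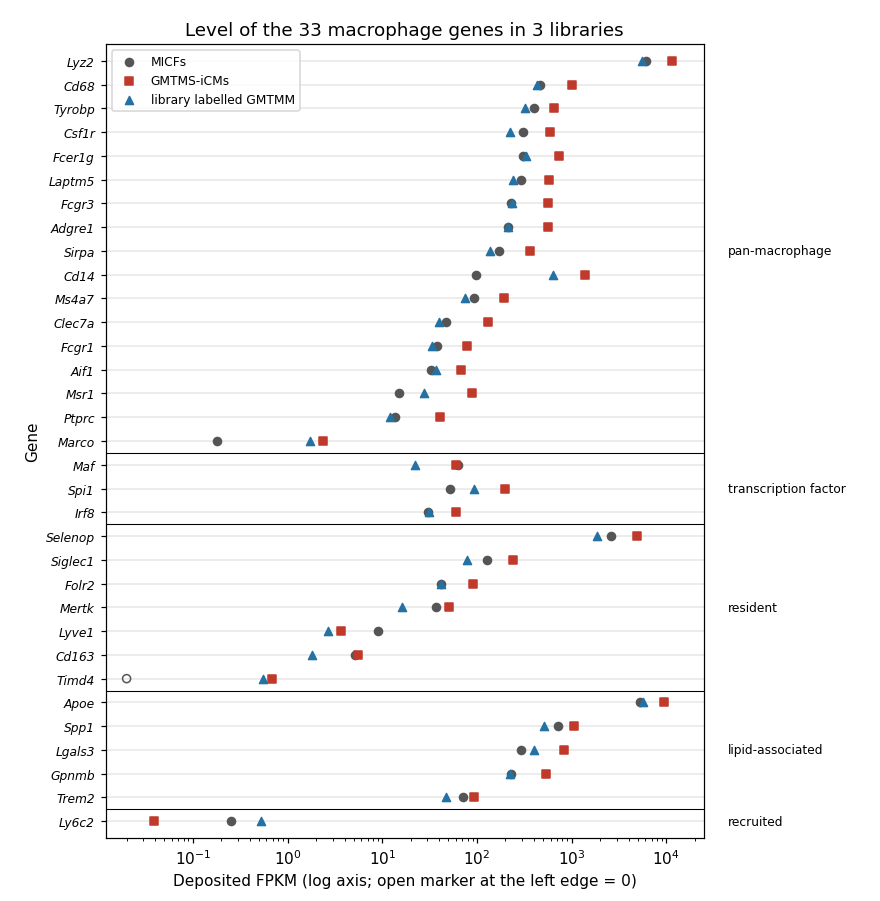
Deposited FPKM (log axis) of each of the 33 genes in MICFs (circles), GMTMS-iCMs (squares) and the GMTMM-labelled library (triangles), 1 library each, ordered by role and by level in MICFs. The squares lie to the right of the other symbols for 30 genes, and Timd4, drawn open, had 0 counts in MICFs.

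Against MICFs, 5 of the 33 genes were higher by over 1 in GMTMS-iCMs (Cd14, Msr1, Marco, Spi1 and Ptprc), where 9.0% of all genes tested were, and 1 was lower (Lyve1), where 8.69% were. The median difference of the 33 genes was 0.36 and that of all genes tested was -0.07. In the GMTMM-labelled library, 2 were higher than in MICFs (Cd14 and Marco), against 6.43% of all genes, and 8 were lower (Maf, Mertk, Lyve1, Siglec1, Cd163, Csf1r, Selenop and Trem2), against 3.53%, with medians of -0.68 for the 33 genes and -0.08 for all genes. Between both transduced libraries, 17 genes were higher in GMTMS-iCMs, against 6.11% of all genes, and 0 were lower, against 9.07%, with medians of 1.00 and 0.06. Without replicates these shares are a description of the 3 libraries.

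The counts of calls depended on the scaling. Without quantile normalization, 17 genes were higher in the GMTMS library than in MICFs, against 10.2% of all genes, and 1 was lower, against 8.60%. In the GMTMM-labelled library 2 were then higher than in MICFs, against 7.43% of all genes, and 4 were lower (Maf, Lyve1, Mertk and Cd163), against 2.54%. Between both transduced libraries 25 were higher in GMTMS-iCMs, against 6.0%, and 0 were lower, against 9.78%. Of the 1000 genes of highest mean FPKM, 324, 234 and 174 were then higher in these comparisons and 93, 9 and 129 lower. The median of the 33 genes was then 1.03, -0.15 and 1.18 in these comparisons, while that of the 1000 most abundant genes was 0.50, 0.49 and 0.12. On library totals the median of all genes tested was itself shifted by -0.43, -0.25 and -0.12, and that of the 33 genes was 0.57, -0.46 and 1.03. The 7 scalings are not separate checks, since several share the quantile normalization and the deposited FPKM without it follow the DESeq2 size factors. Over the 7 scalings, 22 genes lay above MICFs in GMTMS-iCMs in each of them, 3 (Maf, Lyve1 and Ly6c2) lay below in each, and the other 8 did not keep 1 sign. In the GMTMM-labelled library, 6 genes (Cd14, Msr1, Marco, Spi1, Timd4 and Ly6c2) lay above MICFs in each scaling, 19 below in each, and 8 did not keep 1 sign. Marco and Timd4, also among the 22 above, passed the count minimum only through the transduced libraries, so their signs against MICFs add no support. Ly6c2 had 10, 1 and 17 counts and did not pass through GMTMS-iCMs, so its signs for that library add no support either. GMTMS-iCMs lay above that library for 31 genes in each scaling and below it for Ly6c2 in each, and Apoe, at 0.00 where quantile-normalized, was the remaining gene.

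**Figure D2:**
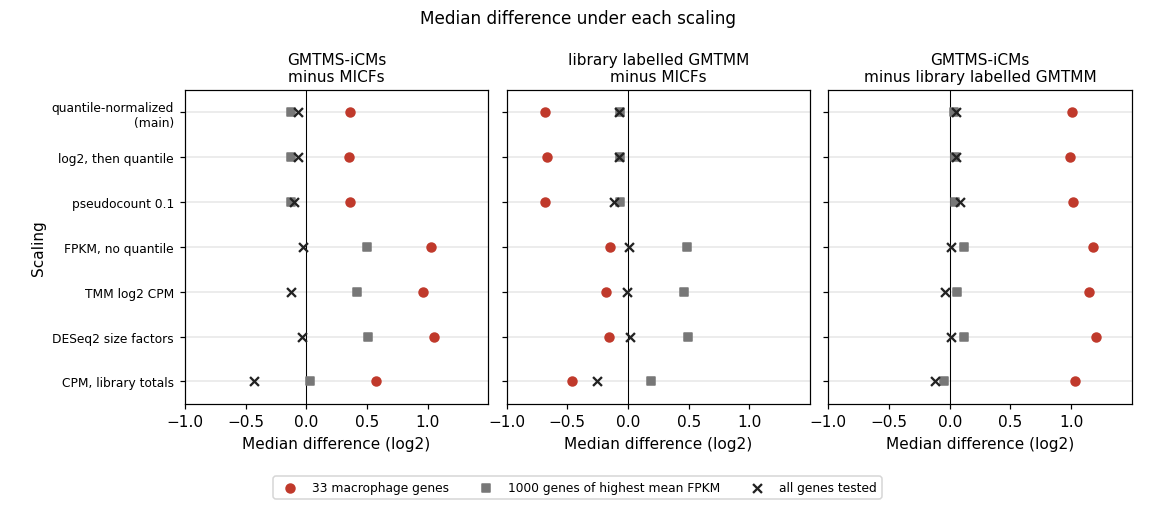
Median log2 difference of the 33 macrophage genes (circles), of the 1000 genes of highest mean FPKM (squares) and of all genes tested (crosses) under 7 scalings, 1 panel per comparison. The circles lie to the right of 0 in the left panel (0.36 to 1.05), to the left of it in the middle panel (-0.15 to -0.68) and near or beyond 1 in the right panel.

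The 17 pan-macrophage genes had a median difference of 0.40 between GMTMS-iCMs and MICFs, with 4 higher and 0 lower by over 1, against 9.0% and 8.69% of all genes. The 4 were 23.5% of the 17, near the 20.0% of the 1000 genes of highest mean FPKM that were higher. In the GMTMM-labelled library the median was -0.66 against MICFs, with 2 higher and 1 lower, against 6.43% and 3.53%. Between both transduced libraries 11 were higher in GMTMS-iCMs, against 6.11%, and the median was 1.08. Without quantile normalization 13, 2 and 15 of the 17 were higher in these comparisons and 0 lower, with medians of 1.11, -0.15 and 1.25. Of all genes 10.2%, 7.43% and 6.0% were then higher. Because the scaling between libraries moved these values, the geometric mean FPKM of 16 of the 17 genes (Marco, with 5 counts in MICFs, left out) was taken as the pan-macrophage level of a library. It was 142 in MICFs, 374 in the GMTMS library and 151 in the GMTMM-labelled library. GMTMS-iCMs were thus 2.63-fold above MICFs on the authors' FPKM scale and 1.90-fold above on library totals, while the GMTMM-labelled library was 1.06-fold above MICFs by FPKM and 1.16-fold below on library totals. This mean includes Cd14, which was higher in both transduced libraries. The summed FPKM of 4 genes (Csf1r, Adgre1, Ptprc and Tyrobp) was 928, 1852 and 771, with the GMTMM-labelled library below MICFs. The median FPKM of the 17 genes was 173, 559 and 215. The order of MICFs and the GMTMM-labelled library thus depended on the measure.

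For a gene that is itself 1 of the 16, changes of its ratio to this level were computed with that gene left out of the mean. Most pan-macrophage genes kept close to that level. Adgre1, which encodes the F4/80 antigen, had 9851 counts in MICFs, 17094 in the GMTMS library and 8117 in the GMTMM-labelled library, at 211, 568 and 215 FPKM. It was highest in GMTMS-iCMs and differed little between the other two, and its ratio to the pan-macrophage level moved by 0.03 and -0.07 (log2) from MICFs to GMTMS-iCMs and to the GMTMM-labelled library. Csf1r, the receptor for CSF1 and IL-34, had 21572, 26876 and 12838 counts in the same order, at 307, 592 and 225 FPKM, and its difference between both transduced libraries was 1.23. Against MICFs Csf1r was lower by over 1 in the GMTMM-labelled library (-1.15), but its difference relative to the pan-macrophage level was -0.57 there and -0.48 in GMTMS-iCMs. With the median pan-macrophage gene as the level these were -0.29 and -0.16. About 15.1% of its exon bases also lie in exons of Hmgxb3, which had at most 487 counts in a library. Ptprc, the leukocyte common antigen CD45, had 3621, 6933 and 2599 counts at 13.7, 40.8 and 12.1 FPKM, and was 2.97-fold (interval 2.85 to 3.09) higher in the GMTMS library than in MICFs. It stood highest in GMTMS-iCMs, and relative to the pan-macrophage level it moved by 0.19 and -0.28.

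The signalling adaptors and Fc receptors were also highest in GMTMS-iCMs. Tyrobp, the adaptor DAP12 of TREM2, had 3802, 4032 and 2491 counts at 396, 651 and 320 FPKM, and Fcer1g, the Fc receptor gamma chain, had 3819, 5998 and 3401 counts at 304, 739 and 333 FPKM. Tyrobp exceeded Fcer1g in MICFs by FPKM, with a ratio of 1.30, and lay below it in both transduced libraries, with ratios of 0.881 and 0.960. The Fc gamma receptors Fcgr1 and Fcgr3 were at 37.7, 78.0 and 33.8 FPKM and at 230, 559 and 234 FPKM, and 12.8% of the 50-base words of Fcgr3 are also found in other transcripts, mostly Fcgr2b, so that reads of these genes may be mixed. Cd68, a lysosomal membrane glycoprotein, stood at 468, 1009 and 432 FPKM. Lyz2 had 116179, 138765 and 84477 counts at 6135, 11353 and 5495 FPKM, but its quantile-normalized difference of 0.00 between GMTMS-iCMs and MICFs follows from its rank of 1 in both. Within a library its ratio to Col1a1, a fibroblast collagen, was 22.2 in MICFs, 209 in the GMTMS library and 8.27 in the GMTMM-labelled library.

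The other genes of this group were also highest in GMTMS-iCMs. Laptm5, a lysosomal membrane protein, Ms4a7, Sirpa, the CD47 receptor, Clec7a and Aif1, which encodes IBA1, differed from MICFs there by between 0.13 (Laptm5) and 0.89 (Clec7a), the largest value under the threshold. In the GMTMM-labelled library they lay between -0.98 (Sirpa, just inside the threshold) and -0.23 (Aif1) against MICFs. Clec7a, the beta-glucan receptor Dectin-1, had 1792, 3171 and 1223 counts and the largest difference of the 33 genes between both transduced libraries, 1.59.

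Cd14, Msr1 and Marco departed from the rest of the pan-macrophage genes. Cd14, the co-receptor for bacterial lipopolysaccharide, had 2219 counts in MICFs, 20292 in the GMTMS library and 11593 in the GMTMM-labelled library, at 98.1, 1390 and 631 FPKM. It ranked 314 in MICFs and 23 and 49 in the transduced libraries. The fold over MICFs was 14.2 (interval 13.6 to 14.8) in GMTMS-iCMs and 6.44 (6.15 to 6.74) in the GMTMM-labelled library, and the differences were 3.07 and 2.15. Cd14 thus lay below Csf1r in MICFs, at 0.320 of its FPKM, and above it in both transduced libraries, at 2.35 and 2.81 times its FPKM. Its ratio to the pan-macrophage level, Cd14 itself left out, was higher by 2.59 and 2.77, nearly the same in both libraries although the levels of all 16 genes differed 2.48-fold.

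Msr1, the class A scavenger receptor (chr8:39581685-39642673, minus strand, GRCm38), had 1357, 5276 and 2059 counts at 14.9, 89.5 and 27.8 FPKM. Msr1 was 6.02-fold (5.67 to 6.40) and 1.87-fold (1.74 to 2.00) higher than in MICFs, with differences of 2.18 and 0.62, and relative to the pan-macrophage level it was higher by 1.28 and 0.87. Marco, a related scavenger receptor, had 5, 42 and 39 counts, which was 13-fold (5.16 to 42.1) and 9.61-fold (3.78 to 31.2) higher than in MICFs. Marco remained a low transcript in each library, at 0.18, 2.35 and 1.73 FPKM.

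**Figure D3:**
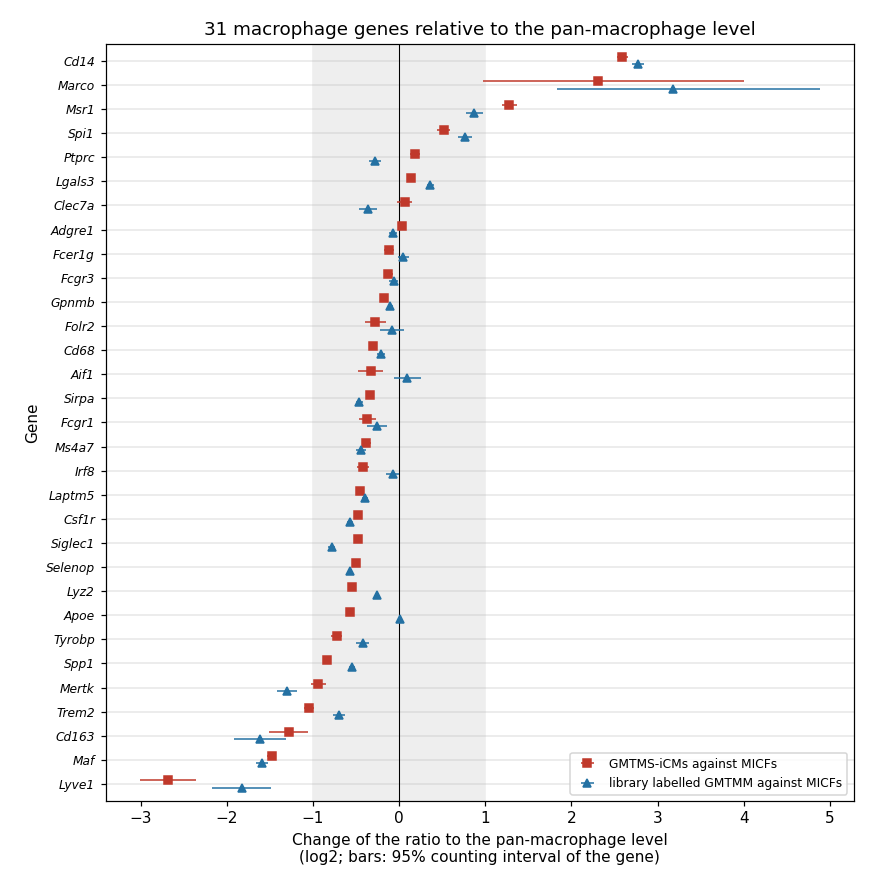
Change against MICFs of the ratio of each gene to the pan-macrophage level of its own library (log2), for 31 genes, in GMTMS-iCMs (squares) and the GMTMM-labelled library (triangles); bars are 95% counting intervals of the gene alone, and the grey band marks changes up to 1. Cd14 and Marco lie to the right of the band and Maf, Cd163 and Lyve1 to its left in both libraries, although Cd163 in GMTMS-iCMs falls inside the band (-0.88 and -0.98) with other references for the level. Timd4 (0 counts in MICFs) and Ly6c2 (1 count in GMTMS-iCMs) are left out.

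Among the transcription factors, Spi1 lay above its MICF level and Maf below it in both transduced libraries under each of the 7 scalings. Spi1 (chr2:91082390-91115756, plus strand), which encodes PU.1, had 2021, 4907 and 2962 counts at 52.1, 196 and 94.1 FPKM. It was 3.76-fold (3.57 to 3.96) higher in GMTMS-iCMs and 1.81-fold (1.71 to 1.91) higher in the GMTMM-labelled library than in MICFs, with differences of 1.30 and 0.33. Maf (chr8:115682942-115707794, minus strand), a factor of differentiated and resident macrophages that other cell types also express, had 7467, 4553 and 2129 counts at 63.0, 59.5 and 22.1 FPKM. Maf was highest in MICFs, with differences of -0.66 in GMTMS-iCMs and -1.98 in the GMTMM-labelled library, where it was 2.85-fold (2.71 to 2.99) lower. The ratio of Maf to Spi1 within a library, which no scaling between libraries touches, was 1.21 in MICFs, 0.303 in the GMTMS library and 0.235 in the GMTMM-labelled library. Irf8, an interferon regulatory factor of the myeloid lineage, had 3107, 3934 and 2548 counts and kept closer to the pan-macrophage level, with changes of -0.42 and -0.07. These were -0.02 and 0.28 with the sum of 4 pan-macrophage genes as the level.

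The 7 resident genes were the group with the most lower calls in the GMTMM-labelled library, where 5 were lower than in MICFs, against 3.53% of all genes, and the median difference was -1.15. In GMTMS-iCMs 1 was lower than in MICFs, against 8.69%, and the median was 0.13. Between both transduced libraries 4 were higher in GMTMS-iCMs, against 6.11%. Without quantile normalization 3 were lower in the GMTMM-labelled library (median -0.69), against 2.54%. In GMTMS-iCMs 1 was then higher and 1 lower than in MICFs (median 0.76), against 10.2% and 8.60%. Lyve1 (chr7:110850607-110863239, minus strand), a hyaluronan receptor of resident macrophages and of lymphatic endothelium, had 377 counts in MICFs, 100 in the GMTMS library and 92 in the GMTMM-labelled library, at 8.98, 3.69 and 2.70 FPKM. It was highest in MICFs and was 2.43-fold (1.95 to 3.06) and 3.33-fold (2.64 to 4.23) lower in the transduced libraries. Prox1, a factor of lymphatic endothelium, had 127, 30 and 39 counts in the same order, and the 8 endothelial genes examined summed to 348, 11.8 and 287 FPKM. The part of endothelial cells in the level of Lyve1 was not tested.

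Mertk, a receptor for apoptotic cells, had 2313, 2049 and 812 counts at 37.1, 50.9 and 16 FPKM, and was 2.31-fold (2.13 to 2.51) lower in the GMTMM-labelled library than in MICFs. Cd163, the haemoglobin scavenger receptor, had 407, 284 and 115 counts at 5.18, 5.60 and 1.80 FPKM, and was 2.87-fold (2.33 to 3.57) lower there. By FPKM neither was below its MICF level in GMTMS-iCMs, but relative to the pan-macrophage level they were lower in each transduced library, with changes of -0.94 and -1.30 for Mertk and of -1.28 and -1.61 for Cd163. With the sum of 4 pan-macrophage genes as the level these changes were smaller, at -0.54 and -0.94 for Mertk and -0.88 and -1.26 for Cd163. Siglec1, the sialic acid receptor CD169, had 13023, 15826 and 6525 counts, with differences of 0.22 and -1.26 from MICFs. Relative to the pan-macrophage level it moved by -0.48 and -0.78, or by -0.08 and -0.43 with the sum of 4 genes as the level. Selenop had 107229, 128267 and 62034 counts at 2622, 4859 and 1869 FPKM, and its difference of -1.14 in the GMTMM-labelled library rests on a change of rank from 5 to 10 among the highest genes. It shares 15.4% of its exon bases with Ccdc152, which had at most 157 counts in a library.

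Folr2, a folate receptor of resident macrophages, did not follow Lyve1 and Cd163. It had 935, 1309 and 763 counts at 42.0, 91.2 and 42.3 FPKM. Its ratio to the pan-macrophage level moved by -0.28 and -0.08, or by 0.12 and 0.27 with the sum of 4 genes as the level. Since 63.1% of its exon bases also lie in exons of Gm10602, which had 73, 32 and 21 counts, its level is uncertain. Timd4, the phosphatidylserine receptor TIM-4, had 0 counts in MICFs and 14 in each transduced library, which was at least 7.23-fold higher in GMTMS-iCMs and at least 5.75-fold higher in the GMTMM-labelled library against a floor of 3 counts. All 3 libraries held little Timd4, at 0, 0.69 and 0.55 FPKM.

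The 10 further genes linked to resident macrophages were not ordered alike. Cx3cr1, the fractalkine receptor, had 454, 198 and 48 counts, and Stab1, the scavenger receptor stabilin-1, had 43491, 21321 and 12445, so both were lowest in the GMTMM-labelled library. Mrc1, the mannose receptor CD206, had 27268, 44302 and 17061 counts, and C1qa, a subunit of complement C1q, had 16812, 22012 and 14104, so both were highest in GMTMS-iCMs. In this list 2 genes were higher (F13a1 and Cd209f) and 1 was lower (Stab1) in the GMTMS library than in MICFs, against 9.0% and 8.69% of all genes. In the GMTMM-labelled library 0 were higher and 3 lower than in MICFs, against 6.43% and 3.53%. Between both transduced libraries 4 were higher and 0 lower in GMTMS-iCMs, against 6.11% and 9.07%. Without quantile normalization 4 were higher and 0 lower in the GMTMS library than in MICFs, against 10.2% and 8.60%, and 2 were lower in the GMTMM-labelled library, against 2.54%.

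The 5 lipid-associated genes included 1 lower call (Trem2, in the GMTMM-labelled library, where 3.53% of all genes tested were lower) and 0 higher calls against MICFs. Without quantile normalization 2 were higher in GMTMS-iCMs, where 10.2% of all genes were, and 0 were lower in either library. Trem2, the lipid receptor that signals through Tyrobp, had 5131, 4233 and 2724 counts at 72.1, 92.1 and 47.1 FPKM. Its difference from MICFs was -0.27 in GMTMS-iCMs and -1.13 in the GMTMM-labelled library, the smallest beyond the threshold, and its ratio to Tyrobp was 0.182, 0.142 and 0.147. Spp1, which encodes osteopontin, had 16850, 16046 and 9948 counts at 711, 1048 and 517 FPKM, with 18.8% of its exon bases in Gm42793 (310, 82 and 21 counts). Gpnmb, a lysosome-associated glycoprotein, had 21302, 32074 and 17085 counts at 227, 530 and 225 FPKM. Lgals3, galectin-3, had 7786, 14511 and 8636 counts. With the geometric mean as the pan-macrophage level, Lgals3 was the only one of the 5 whose ratio was above that of MICFs in GMTMS-iCMs, by 0.14. Gpnmb was also above it with the sum of 4 pan-macrophage genes (0.23) or the median pan-macrophage gene (0.13) as the level, but not with Cd14 left out of the mean (-0.01). Apoe had 163994, 187320 and 142625 counts at 5331, 9433 and 5711 FPKM, and its quantile-normalized differences of 0.00 follow from its rank of 2 in each library. Relative to the pan-macrophage level Apoe changed by -0.57 in GMTMS-iCMs and 0.01 in the GMTMM-labelled library. Of 12 further lipid-handling genes, 1 (8.33%) was higher (Cd36) and 2 (16.7%) were lower (Fabp4 and Lpl) in the GMTMS library than in MICFs, against 9.0% and 8.69% of all genes. In the GMTMM-labelled library 0 were higher and 1 (Lipa) lower, against 6.43% and 3.53%. Calls this few and near these shares are not read as a result about the list. Without quantile normalization 5 were higher and 1 lower in the first comparison, against 10.2% and 8.60%, and 0 were called in the second, against 7.43% and 2.54%.

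Transcripts of recruited monocytes were scarce. Ly6c2, which encodes a Ly6C antigen, had 10 counts in MICFs, 1 in the GMTMS library and 17 in the GMTMM-labelled library, all under 1 FPKM. The ratio of GMTMS-iCMs to the GMTMM-labelled library was 0.074 (0.00177 to 0.472), but 13.3% of its 50-base words are shared with other genes, mostly Ly6c1, an endothelial gene with 557, 19 and 813 counts, so its level is uncertain. Ccr2, the chemokine receptor by which monocytes enter injured tissue, had 36, 14 and 49 counts, and Chil3, a chitinase-like gene of monocytes, had 0 in each. Of 9 further genes linked to recruited monocytes, 1 was higher (Itgal) and 3 were lower (Plac8, S100a4 and Fn1) in the GMTMS library than in MICFs, against 9.0% and 8.69% of all genes. In the GMTMM-labelled library 1 was higher and 0 were lower, against 6.43% and 3.53%. Between both transduced libraries 0 were higher and 4 lower in GMTMS-iCMs, against 6.11% and 9.07%. The list summed to 291, 63.7 and 434 FPKM, of which the highest gene made up 263, 40.2 and 378, and Fn1 and S100a4 are also fibroblast genes. Neutrophil transcripts were low. Of 8 neutrophil genes, S100a9, Ly6g, Retnlg and Ngp had 0 counts in each library, and the list summed to 16, 11 and 63 counts. The highest gene of the list stood at 1.10, 0.852 and 6.32 FPKM. In the GMTMM-labelled library 1 of the 8 was called higher than in MICFs, against 6.43% of all genes tested.

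**Figure D4:**
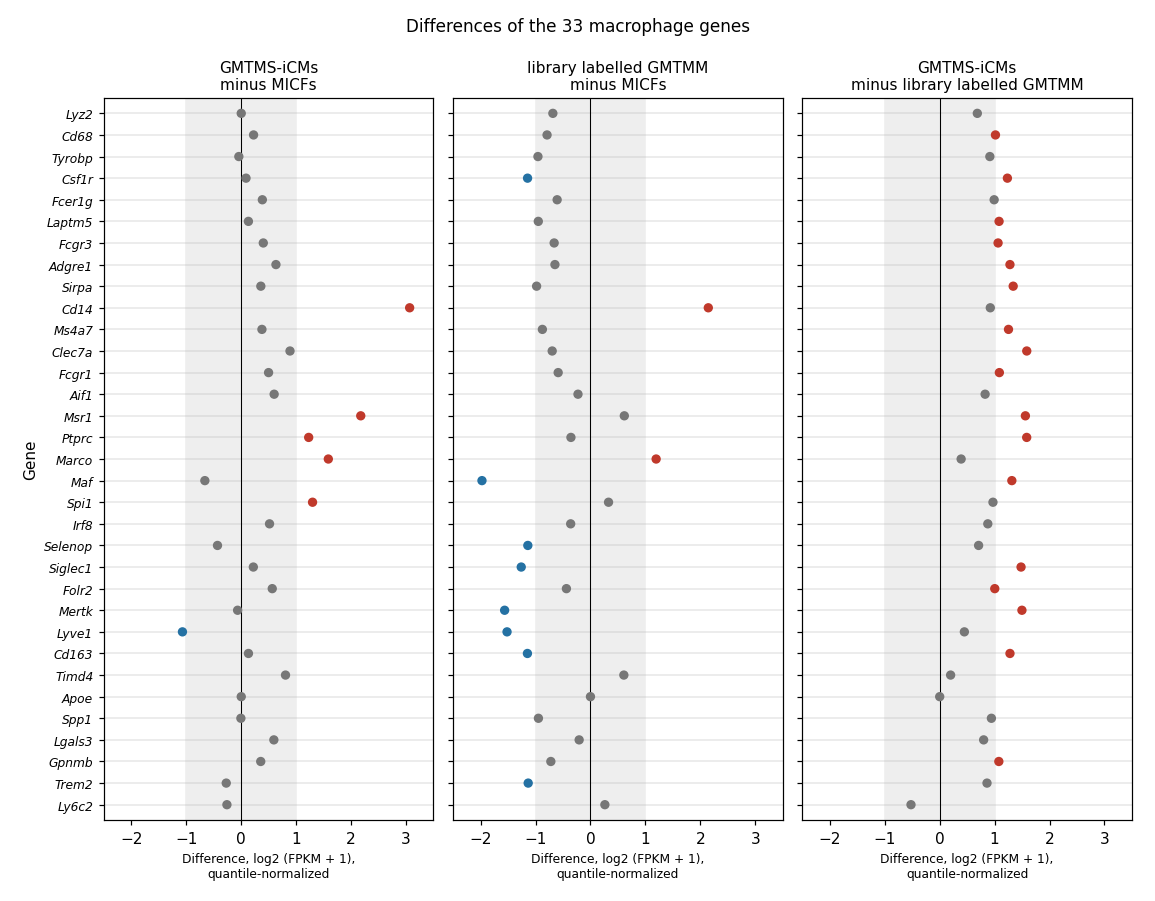
Log2 differences of quantile-normalized FPKM for the 33 genes in the 3 comparisons, in the order of the plot of levels; the grey band marks differences up to 1, and genes beyond it are red (higher) or blue (lower). In the left panel 5 genes lie beyond the band on the right and 1 on the left, in the middle panel 2 and 8, and in the right panel 17 and 0.

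Relative to the pan-macrophage level of its own library, 4 genes were higher by over 1 in the GMTMS library than in MICFs (Cd14, Marco, Timd4 and Msr1), where 5.59% of all genes tested were, and 5 were lower (Lyve1, Ly6c2, Maf, Cd163 and Trem2), where 68.6% were. In the GMTMM-labelled library 3 genes were higher than in MICFs (Marco, Cd14 and Timd4), against 13.4% of all genes, and 4 were lower (Lyve1, Cd163, Maf and Mertk), against 13.1%. Between both transduced libraries 0 genes were higher, against 1.32% of all genes, and 1 was lower (Ly6c2), against 64.1%. Counts under 3 were set at 3 here, which concerns Timd4 in MICFs and Ly6c2 in GMTMS-iCMs. On this scale the transduced libraries thus differed from each other by over 1 in 1 of the 33 genes. The level was also taken as the sum of 4 pan-macrophage genes, as the median gene, or as the geometric mean without Cd14. In each case Cd14, Marco and Timd4 were higher and Maf and Lyve1 lower by over 1 in both transduced libraries, while Trem2 was no longer lower in GMTMS-iCMs in any of them. Marco, Timd4 and Ly6c2 passed the count minimum only through the libraries in which they were higher, so their calls on this scale add no support. Cd163 was no longer lower by over 1 in GMTMS-iCMs with the sum of 4 genes (-0.88) or the median gene (-0.98), and Mertk was no longer so in the GMTMM-labelled library with the sum of 4 genes (-0.94).

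The members' promoters are given because the genes for PU.1 and Maf stood on opposite sides of their MICF level. RefSeq promoters on GRCm38.p6, which run from 250 bases before to 50 bases after a transcription start, were listed for 23 of the 33 genes, with 35 starts. None was listed for Adgre1, Csf1r, Cd14, Tyrobp, Msr1, Sirpa, Spi1, Maf, Lyve1 or Siglec1. Cd14, Maf and Lyve1, whose departures held with each reference for the level, are thus absent from what follows. The letters GAGGAA, a core of PU.1 sites, or their reverse complement TTCCTC were found in 19 of the 35 (54.3%), against 28.3% of 32851 promoters of all genes. The letters TGCTGA, a core of Maf sites, or TCAGCA were found in 8 of the 35 (22.9%), against 19.5% of all. Promoters of neighbouring starts of 1 gene overlap, so a match can be counted more than once. Counted by gene, the PU.1 letters were found in 14 of the 23 (60.9%), against 31.3% of 27025 genes. The Maf letters were found in 6 of the 23 (26.1%), against 21.7%. Matches to TTCCTC and TCAGCA can overlap at their ends, and a match is a description of the sequence and not a site. Shown for some members are the 250 bases before the start, 5′ to 3′ on the strand of the gene with matches to either motif in capitals. The ratio to the pan-macrophage level changed by less than 1 for Lyz2 and Cd68. It departed upwards for Marco and downwards for Cd163, and for Mertk downwards by over 1 only in the GMTMM-labelled library.
Lyz2, chr10:117282273-117282522, minus strand: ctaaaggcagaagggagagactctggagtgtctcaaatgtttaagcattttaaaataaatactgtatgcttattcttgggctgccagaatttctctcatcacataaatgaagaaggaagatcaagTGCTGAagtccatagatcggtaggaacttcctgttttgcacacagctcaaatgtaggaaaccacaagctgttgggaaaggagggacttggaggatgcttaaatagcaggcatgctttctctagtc
Cd68, chr11:69666171-69666420, minus strand: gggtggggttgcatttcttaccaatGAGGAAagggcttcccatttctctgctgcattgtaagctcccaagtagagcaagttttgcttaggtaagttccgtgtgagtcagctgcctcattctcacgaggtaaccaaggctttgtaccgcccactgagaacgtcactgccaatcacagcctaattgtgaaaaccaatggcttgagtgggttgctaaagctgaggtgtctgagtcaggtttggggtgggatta
Marco, chr1:120505025-120505274, minus strand: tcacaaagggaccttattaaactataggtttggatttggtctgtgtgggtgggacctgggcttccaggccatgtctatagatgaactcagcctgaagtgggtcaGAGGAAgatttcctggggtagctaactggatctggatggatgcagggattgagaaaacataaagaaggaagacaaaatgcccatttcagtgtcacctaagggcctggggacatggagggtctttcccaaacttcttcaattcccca
Mertk, chr2:128698665-128698914, plus strand: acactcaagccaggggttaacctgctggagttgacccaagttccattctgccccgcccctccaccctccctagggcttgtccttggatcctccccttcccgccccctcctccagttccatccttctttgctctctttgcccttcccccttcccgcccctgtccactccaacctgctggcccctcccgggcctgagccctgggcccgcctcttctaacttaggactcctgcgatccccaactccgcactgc
Cd163, chr6:124304401-124304650, plus strand: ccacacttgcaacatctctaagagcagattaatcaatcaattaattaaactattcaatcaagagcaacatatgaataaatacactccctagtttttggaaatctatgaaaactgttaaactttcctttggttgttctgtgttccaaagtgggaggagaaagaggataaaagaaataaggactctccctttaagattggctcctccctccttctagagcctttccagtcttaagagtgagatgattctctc
Within these windows Lyz2 held 1 match to the Maf letters and 0 to the PU.1 letters, Cd68 and Marco held 1 match each to the PU.1 letters, 225 and 146 bases before the start, and Mertk and Cd163 held 0 of either. In its full listed promoter Timd4 held 0 matches to the PU.1 letters and 2 to the Maf letters, and Trem2 and Ly6c2 held 1 and 2 matches to the PU.1 letters per promoter. Marco, Timd4 and Ly6c2 passed the count minimum only through the libraries in which they were higher. Trem2 was lower by over 1 in GMTMS-iCMs only with the geometric mean that includes Cd14 as the level. No order of matches by direction is therefore read from these members, and a link of the letters to the levels was not tested.

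Growth factors for the lineage were ordered differently from the macrophage genes. Csf1, the main ligand of Csf1r, had 2867 counts in MICFs, 1042 in the GMTMS library and 7325 in the GMTMM-labelled library, at 37.7, 21.2 and 119 FPKM, and Il34, its other ligand, had 126, 21 and 145 counts. Both ligands were lowest in GMTMS-iCMs, where Csf1r was highest. Csf2, the ligand GM-CSF, had 0, 17 and 19 counts, and Csf3, the ligand G-CSF, had 1, 24 and 151, so both were higher in the transduced libraries. The receptor chains Csf2rb and Csf3r had 1346, 4482 and 2079 counts and 563, 1435 and 675 counts, highest in GMTMS-iCMs. Of the 8 genes of this list, 4 were higher and 2 lower in the GMTMS library than in MICFs, against 9.0% and 8.69% of all genes tested. In the GMTMM-labelled library 3 were higher and 0 lower, against 6.43% and 3.53%. Without quantile normalization 1 in place of 2 was lower in the GMTMS library, against 8.60%.

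Other transcripts of hematopoietic cells moved with the macrophage genes in part. Of 20 further macrophage genes, 7 were higher and 0 lower in the GMTMS library than in MICFs (median 0.62), against 9.0% and 8.69% of all genes. In the GMTMM-labelled library 1 was higher and 4 were lower (median -0.51), against 6.43% and 3.53%. In GMTMS-iCMs 15 were higher and 0 lower than in that library (median 1.25), against 6.11% and 9.07%. Without quantile normalization 13 were higher in the GMTMS library than in MICFs (median 1.30), against 10.2%. In the GMTMM-labelled library 1 was then higher and 0 were lower (median -0.10), against 7.43% and 2.54%. Plek, which encodes pleckstrin, had 5693, 35542 and 13642 counts and was the gene of this list that was higher in both transduced libraries. The osteoclast gene Acp5, tartrate-resistant acid phosphatase, had 179, 2571 and 1347 counts and Ocstamp had 5, 120 and 54, whereas Calcr had 0 in each and Ctsk, which fibroblasts also express, had 445, 174 and 686. The T cell genes Cd3e and Cd8a had 4, 4 and 57 counts and 1, 1 and 63 counts, so they were higher in the GMTMM-labelled library, and B cell genes had at most 23 counts in a library. Mcpt4, a mast cell protease, had 2, 78 and 350 counts, while the mast cell genes Cma1 and Ms4a2 had 0 in each. The summed lists of T and NK cells (4.88, 14.0 and 16.5 FPKM), mast cells (0.996, 7.65 and 27.3) and neutrophils (1.33, 1.01 and 6.94) were lower than that of the 33 genes (18472, 35908 and 17542 FPKM), and Cd4, which macrophages also express, made up 13.6 FPKM of the T and NK list in GMTMS-iCMs. The part of such cells in the levels of the 33 genes was not tested.

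**Figure D5:**
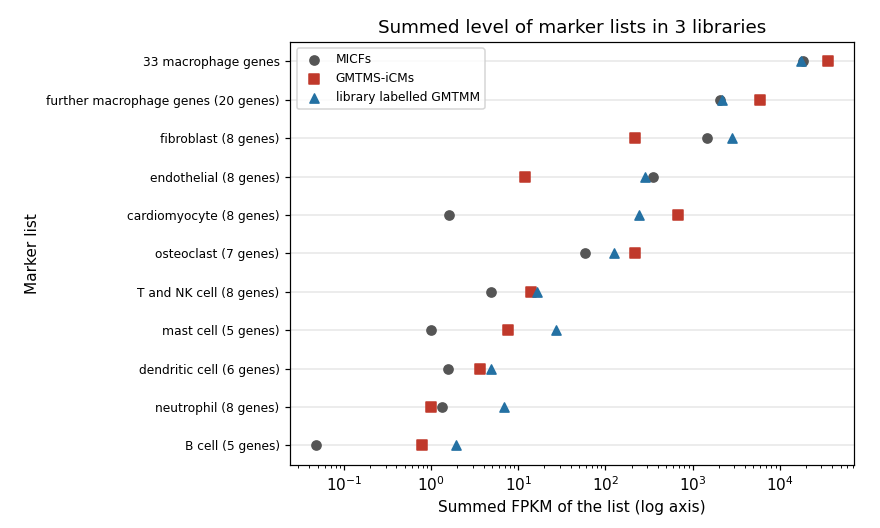
Summed FPKM (log axis) of the 33 macrophage genes and of marker lists of other cell types in MICFs (circles), GMTMS-iCMs (squares) and the GMTMM-labelled library (triangles). The macrophage and cardiomyocyte lists are highest in GMTMS-iCMs, where the fibroblast and endothelial lists are lowest (221 and 11.8 FPKM), and the lymphoid, mast cell and neutrophil lists lie far below the macrophage list in each library.

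The fibroblast genes ran opposite to the macrophage genes. All 8 fibroblast genes were lower by over 1 in the GMTMS library than in MICFs (median -3.00), against 8.69% of all genes. In the GMTMM-labelled library 1 was higher and 0 were lower, against 6.43% and 3.53%, with a median of 0.39. Without quantile normalization 4 of the 8 were higher in the GMTMM-labelled library, against 7.43%, with a median of 1.01. The ratio of Csf1r to Pdgfra, a fibroblast surface receptor, was 17.3 in MICFs, 173 in the GMTMS library and 8.62 in the GMTMM-labelled library. Of the 33 genes, the 11 that are also expressed outside leukocytes had medians of 0.00, -0.95 and 0.94 in the 3 comparisons, and the other 22 had 0.45, -0.63 and 1.03. Without quantile normalization these medians were 0.89, -0.35 and 1.22 for the 11 genes and 1.03, -0.07 and 1.16 for the 22. In both subsets the median differences put the GMTMM-labelled library below the other libraries.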

How the data were processed

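RNA-seq was available for 3 libraries, 1 per condition. The authors deposited raw counts per gene and FPKM per gene, whose library sizes followed DESeq2 size factors (1.26, 0.811 and 1.02). HISAT2 2.0.5 and mm9 are named in the submitters' processing notes, but the coordinates are those of GRCm38, since 53499 of 54532 genes have the start and end given in GENCODE M21. How reads were counted, and whether strand was used, is not given in the sources used here. The MICF column has an abbreviation of its own and was assigned by elimination, as each remaining column carries the name of a cocktail. The 33 genes and all lists were chosen with earlier results of these data known, and the text names members called in a comparison or with at least 100 counts in a library, and of other lists the genes called or highest. Deposited FPKM were quantile-normalized over the 3 libraries (ties at their mean rank) and transformed as log2 (value + 1), and genes with at least 10 counts in at least 1 library were used. Other scalings were FPKM without quantile normalization, log2 before it, a pseudocount of 0.1, TMM log2 CPM of edgeR 4.0.16 (prior count 2), DESeq2 1.42.0 size factors and CPM on library totals. The steps were tested on simulated data. Motifs were searched on both strands. Python 3.11.15 was used with SciPy 1.17.1, pandas 2.3.3, numpy 2.4.6 and matplotlib 3.10.9, beside R 4.3.3.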

Additional observations from a re-analysis of the deposited data

Results flagged for a closer look

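Of the 33 genes, 10 were higher than MICFs in GMTMS-iCMs and lower than MICFs in the GMTMM-labelled library under each of the 7 scalings. The difference between both transduced libraries, on the quantile-normalized log2 scale, was 1.59 for Clec7a, 1.58 for Ptprc, 1.48 for Siglec1, 1.34 for Sirpa and 1.25 for Ms4a7. It was 1.23 for Csf1r, 1.09 for Fcgr1, 1.08 for Laptm5, 1.08 for Gpnmb and 1.02 for Cd68. Some of the differences from MICFs were small. Without quantile normalization the GMTMM-labelled library differed from MICFs by -0.11 for Cd68, -0.15 for Fcgr1 and -0.16 for Ptprc. On the quantile-normalized scale Csf1r differed by 0.09 and Laptm5 by 0.13 between GMTMS-iCMs and MICFs. Ly6c2 ran the other way under each scaling, lower than MICFs in GMTMS-iCMs and higher in the GMTMM-labelled library, with a difference of -0.52 between both, and it rests on 10, 1 and 17 counts. These differences were not tested, since there is 1 library per condition, and both comparisons share the MICF library. The 7 scalings overlap in their steps and are not separate checks.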

How the results depend on the processing

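No paired analysis was possible because there is 1 library per condition, so no library could be left out either. Genes higher in the GMTMS library than in MICFs numbered 5, and 17 without quantile normalization, 14 with TMM, 18 with DESeq2 size factors and 2 with a difference over 2. The share of all genes tested that was higher went from 9.0% to 10.2%, 14.8%, 16.4% and 2.83% under these settings. Genes lower numbered 1, and 2 with a pseudocount of 0.1, with TMM or with DESeq2 size factors (17.4%, 20.9% and 20.0% of all genes), and 0 with a difference over 2 (2.92%). The median went from 0.36 to 1.03, 0.96, 1.05 and, on library totals, 0.57. For the GMTMM-labelled library against MICFs, 2 genes were higher (1 with a difference over 2) and 8 lower, and 4 were lower without quantile normalization, with TMM or with DESeq2 size factors, 5 on library totals and 0 with a difference over 2. Of all genes, 3.53% were lower, and 2.54%, 11%, 11%, 11.9% and 0.280% under these settings. Its median went from -0.68 to -0.15, -0.18, -0.16 and -0.46 under these scalings and to -0.66 with log2 before quantile normalization. Between both transduced libraries, 17 genes were higher (0 with a difference over 2), 0 were lower and 1, Ly6c2, was lower with a pseudocount of 0.1, TMM, DESeq2 size factors or library totals, where 15.8%, 19.1%, 18.9% and 15.5% of all genes were. The median went from 1.00 to 1.18, 1.15 and 1.20 under FPKM that was not quantile-normalized, TMM and DESeq2 size factors. Relative to the pan-macrophage level, genes lower in the GMTMS library than in MICFs went from 5 to 3 with the sum of 4 genes or the median gene as reference, and genes higher in the GMTMM-labelled library went from 3 to 6 with each of these and to 5 without Cd14. The last 2 references were chosen after seeing the data. For values of single genes, 312 of the alternatives moved beyond the counting interval and 375 did not, and 0 reversed a called difference. Values of Marco, Timd4 and Ly6c2 are limited by depth, with at most 42 counts in a library.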
